A study of Lepidobatrachus laevis with 14 samples.

Results

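The genes of DNA replication and mitosis were followed in the left and the right stomach of Lepidobatrachus laevis, Budgett's frog, whose larvae are carnivorous. The 40 genes were listed by name as regulators of G1 (8 genes), of DNA replication (14 genes) and of mitosis (18 genes), and all 40 had a reviewed row in a count table of 26940 rows. RNA was sequenced from 7 left and 7 right stomach libraries of wild-type animals of wild-caught background at Gosner stage 19. Replicates 7 and 8 of each side were pools, each of that side of 5 stomachs, and the other 5 libraries of a side came from single stomachs. The pools were prepared at another facility than the rest, and these differences cannot be told apart. The study is about the shape of the stomach on its 2 sides and, by its title, the transcription factor Single-minded 2, and its comparison is left against right.

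A dividing cell passes G1, copies its DNA once and then parts the copies in mitosis. Cyclins D and E with the kinases CDK4, CDK6 and CDK2 release E2F factors, which switch on replication genes. The origin recognition complex, CDC6 and CDT1 load the MCM helicase on DNA, geminin (GMNN) holds CDT1 back after that, and PCNA clamps the polymerases to the template. CDK1 with cyclins A and B drives entry into mitosis, where Aurora and Polo kinases build the spindle and the BUB proteins delay anaphase until each chromosome is attached. In bulk tissue, fewer dividing cells and less of a transcript per cell cannot be told apart.

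Counts are listed against human UniProt entries, so names are those of the human counterparts, and roles are those known from human and other model organisms. No transcript length or genomic position is attached to a row, so levels are compared between libraries and not between genes. Levels are CPM, the reads of a row scaled to a common library size with TMM factors. Total counts per library ran from 12174670 to 20022774 in the 4 pools and from 21525694 to 62707669 in the 10 single-stomach libraries. All 11 markers of foregut and stomach on a fixed list were above 0 in each library and summed to 1328 to 1813 CPM (left) and 1146 to 1839 CPM (right). Among the single-stomach libraries, replicates 5 and 6 stood apart from replicates 1 to 3. Correlations of log2(CPM + 0.5) over all rows tested were at least 0.969 within each of these sets and at most 0.954 between them. The labels do not give this division. Replicates 5 and 6 were also sequenced more deeply, with 47441280 to 62707669 counts against 21525694 to 34229305 in replicates 1 to 3.

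All 40 genes were well covered, from 57 counts in the lowest library for AURKB to 21421 in the highest for TOP2A. Together they summed to 4426 to 5896 CPM in left libraries (median 4966) and 4326 to 5257 CPM in right ones (median 4841), and the sides overlapped. The mean of the genes' log2 deviations was highest in left replicates 3 and 7, at 0.21 in each, and lowest in right replicate 5, at -0.21.

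**Figure D1:**
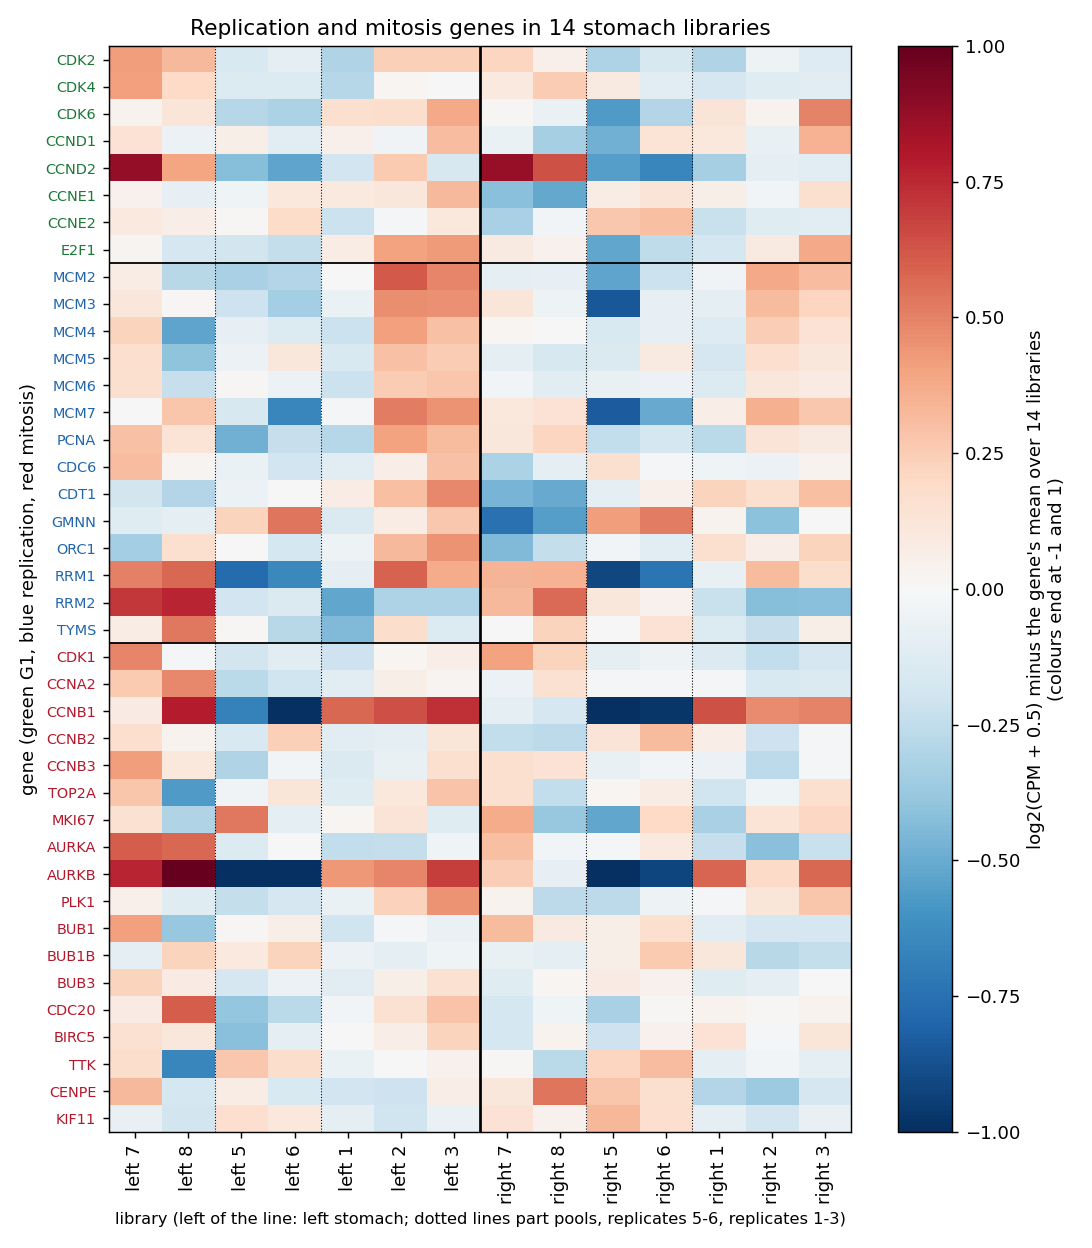
Level of each of the 40 genes (rows, grouped by phase) in each of the 14 libraries (columns), as log2(CPM + 0.5) minus the gene's mean over the libraries. Replicates 2 and 3 of both sides are above the mean for the MCM genes, the left libraries more so than the right. Replicates 5 and 6 of both sides are far below it for CCNB1 and AURKB.

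No replication or mitosis gene on the list passed the test between the left and the right stomach. With library source in the model, edgeR's quasi-likelihood test called 0 of 40 genes, against 0% of the 23271 rows tested, and 0 of 40 had an unadjusted p under 0.05, against 1.06% of all rows. DESeq2 called 0 of 40 genes and 0 rows as well. The fitted log2 fold, left over right, was above 0 for 34 of 40 genes, against 52.9% of all rows, with a median of 0.07 against 0.01. The folds ran from -0.10 to 0.32, and the libraries of both sides overlapped for 40 of 40 genes (0.00859% of all rows were higher on the left without overlap and 0% lower). In the single-stomach libraries alone 28 of the 40 folds were above 0, with a median of 0.04. In the pools alone 27 were, with a median of 0.11.

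In G1, all 8 genes had a fitted fold above 0, with a median of 0.08, and 0 passed the test. CDK2, the kinase partner of cyclin E, came closest. It lay between 37.5 and 62.0 CPM in left libraries (median 54.5) and between 37.2 and 53.7 CPM in right ones (median 42.3), and the ranges overlapped. Its log2 fold was 0.20 ± 0.11 (SE; edgeR unadjusted p = 0.0727, adjusted p = 1), and with the replicate block the unadjusted p was 0.0343 (adjusted p = 1). In the fit with the replicate block, 2 of the 40 genes and 490 of 24262 rows had an unadjusted p under 0.05.
CCNE1, cyclin E1, lay between 114 and 151 CPM in left libraries (median 129) and between 84.6 and 135 CPM in right ones (median 126), a log2 fold of 0.16 ± 0.09 (SE). The 2 right pools, at 90.3 and 84.6 CPM, were the lowest of the 14 libraries for this gene. CCND1, cyclin D1, lay between 92.4 and 123 CPM in left libraries (median 103) and between 71.1 and 127 CPM in right ones (median 95.2), a log2 fold of 0.09 ± 0.12. The other 5, CDK4, CDK6, CCND2, CCNE2 and E2F1, had log2 folds from 0.02 to 0.10.

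Of the 14 replication genes 12 had a fold above 0, with a median of 0.10, and 0 passed the test. GMNN, the inhibitor of CDT1, lay between 55.5 and 89.0 CPM in left libraries (median 64.5) and between 36.4 and 87.5 CPM in right ones (median 61.7), a log2 fold of 0.20 ± 0.16 (SE). Its target CDT1 lay between 176 and 300.2 CPM in left libraries (median 214) and between 151 and 265 CPM in right ones (median 222), where the order of the medians was opposite to the sign of the fold, 0.10 ± 0.10. CDC6, the other loader of the helicase, lay between 112 and 158 CPM in left libraries (median 130) and between 102 and 142 CPM in right ones (median 124), a log2 fold of 0.10 ± 0.11. The 6 helicase subunits MCM2 to MCM7 each had a fold above 0, from 0.01 for MCM4 to 0.11 for MCM3, but in the pools alone the folds of MCM2, MCM3, MCM4 and MCM7 were below 0, and MCM4 was below 0 with the replicate block. MCM2, for example, lay between 205 and 394 CPM in left libraries (median 257) and between 178 and 333 CPM in right ones (median 243). The folds of the nucleotide enzymes RRM2, a subunit of ribonucleotide reductase, and TYMS, thymidylate synthase, were both -0.01, with errors of 0.12 and 0.14.

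Of the 18 mitosis genes 14 had a fold above 0 and 4 below, with a median of 0.05, and 0 passed the test. AURKA, the Aurora kinase of the spindle poles, lay between 42.8 and 77.6 CPM in left libraries (median 49.6) and between 38.0 and 62.8 CPM in right ones (median 49.996), a log2 fold of 0.14 ± 0.11 (SE). CDC20, which activates the anaphase-promoting complex, lay between 90.1 and 180 CPM in left libraries (median 125) and between 94.1 and 121 CPM in right ones (median 119), a log2 fold of 0.15 ± 0.14. Both genes were highest in a left pool, and their other libraries overlapped.
The 4 genes below 0 were the spindle motor KIF11, the kinetochore motor CENPE and the checkpoint kinases BUB1 and TTK, the lowest being KIF11 at -0.10 ± 0.10. KIF11 lay between 77.3 and 99.8 CPM in left libraries (median 84.4) and between 78.3 and 112 CPM in right ones (median 91.8), with overlap. The proliferation marker MKI67 lay between 53.9 and 95.8 CPM in left libraries (median 67.4) and between 46.1 and 85.8 CPM in right ones (median 73.0). DNA topoisomerase TOP2A lay between 229 and 413 CPM in left libraries (median 365) and between 286 and 380 CPM in right ones (median 344). Neither gene gave a fold larger than its error. The largest fold among the 40 was that of AURKB, 0.32 ± 0.47, whose standard error was also the largest.

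A second list of 88 replication and mitosis genes, with subunits of the GINS, RFC, RPA, condensin and NDC80 complexes and further E2F and CDC25 family members, was read the same way. It also held the entries RB, RBL1, RBL2, CDN1A, CDN1C, WEE1 and PMYT1. Of its 82 genes with a row, 60 had a fold above 0 and 22 below, with a median of 0.04, and 0 passed the test.

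The 5 pairs of single-stomach libraries that share a title stem did not agree in direction. In replicate 2 the left library was higher for 38 of 40 genes and in replicate 3 for 35, where 51.2% and 53.4% of all rows were. In replicate 5 it was higher for 21 genes, where 49.6% of all rows were. In replicates 1 and 6 the left was higher for 13 and 8 of the 40, where 44.8% and 50.3% of all rows were. The members' median log2 ratio, left over right, was -0.06 in replicate 1, 0.15 in replicate 2, 0.17 in replicate 3, 0.02 in replicate 5 and -0.08 in replicate 6. The left excess over all libraries was smaller without the left library of replicate 2 or 3. Without left replicate 2 the fitted median over the 40 genes was 0.02, with 27 folds above 0, and without left replicate 3 it was 0.02, with 25 above 0.

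By phase, in replicate 1 the left was higher for 5 of 8 G1, 3 of 14 replication and 5 of 18 mitosis genes. In replicate 2 the left was higher for all 8 G1, all 14 replication and 16 of 18 mitosis genes, and in replicate 3 for 5 G1, 13 replication and 17 mitosis genes. In replicate 5 it was higher for 5 G1 genes, for 10 replication genes, the 6 MCM subunits among them, and for 6 mitosis genes. In replicate 6 it was higher for 3 G1, 3 replication and 2 mitosis genes. Differences between phases were not tested. The largest ratio in any pair was that of MKI67 in replicate 5, at 95.8 CPM in the left library and 46.1 CPM in the right one. In the same pair MCM7 was at 233 CPM (left) and 146 CPM (right), MCM3 at 216 CPM (left) and 139 CPM (right), and CCND1 at 104 CPM (left) and 71.1 CPM (right).

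E2F1 and MCM5 were higher on the left in 5 of 5 pairs, as were 3.53% of all rows, and none of the 40 was lower in 5 of 5, as 3.83% of all rows were. E2F1, the transcription factor that activates replication genes, had log2 ratios from 0.02 in replicate 6 to 0.33 in replicate 5. In the pools E2F1 went the other way, at 13.3 and 11.6 CPM (left) and 14.0 and 13.6 CPM (right). CDK2, CCND2, MCM2, MCM3, RRM1, TOP2A and TTK were higher in 4 pairs, 16 genes in 3 and 14 in 2. KIF11 was higher in 1. Of all rows, 15.8% were higher on the left in 4 pairs, 30.2% in 3, 31.2% in 2 and 15.4% in 1. Markers of other tissues also differed within the pairs. The 8 liver markers summed to a lower level on the left in 5 of 5 pairs, with log2 ratios of -0.92 in replicate 1, -0.74 in replicate 2, -0.79 in replicate 3, -0.64 in replicate 5 and -0.24 in replicate 6. Over all libraries the sum was 1536 to 37863 CPM (left) and 2655 to 30464 CPM (right), and none was at 0. The 6 erythroid markers with a row, none at 0, had a log2 ratio of -2.48 in replicate 2 and between -0.31 and 0.33 in the other pairs, and summed to 1015 to 73102 CPM (left) and 4143 to 28986 CPM (right) over all libraries. The 6 epidermal markers also summed lower on the left in 5 of 5 pairs (log2 ratios from -0.31 to -0.05), as did the 4 leukocyte markers (from -1.64 to -0.14). Sums follow the most abundant markers, and the epidermal list holds keratin entries (K2C5, K1C14 and K2C8) that other epithelia may share. In the fit over all libraries, 5 of 6 epidermal and 6 of 6 erythroid markers had a fold, left over right, above 0. All 8 liver and all 4 leukocyte markers had a fold below 0. The part of these markers in the ratios of the replication and mitosis genes was not tested.

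**Figure D2:**
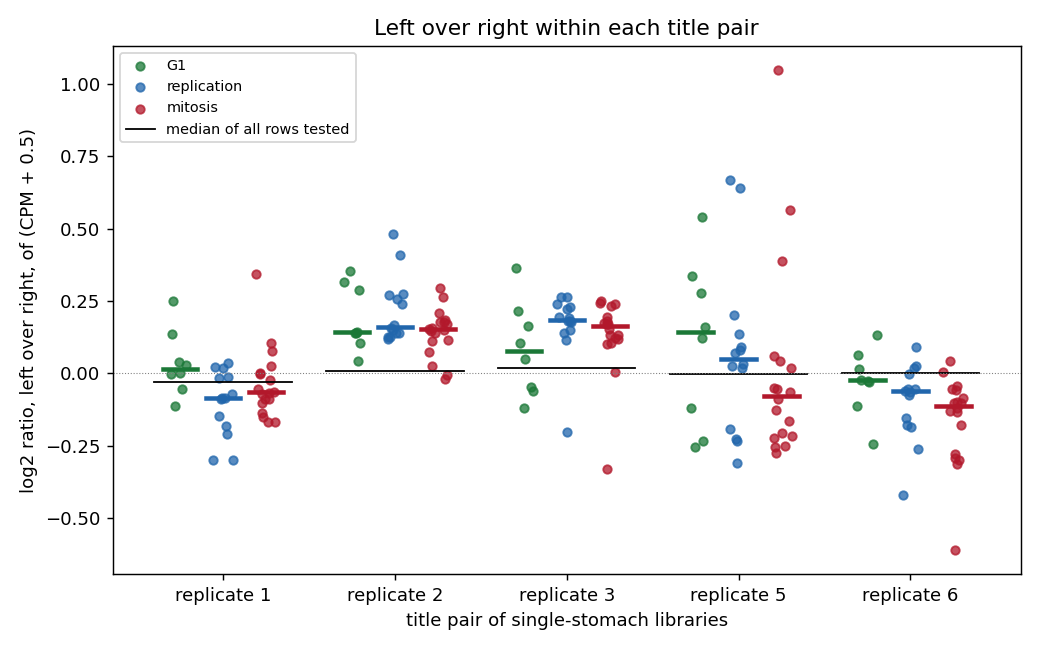
Log2 ratio, left over right, of (CPM + 0.5) for each of the 40 genes (points, coloured by phase) in each title pair, with the median of each phase (coloured bar) and of all rows tested (black line). The phase medians lie above the black line in replicates 2 and 3, and those of replication and mitosis lie below it in replicates 1 and 6.

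The pools differed from the single-stomach libraries in a few replication and mitosis genes, in both directions. The edgeR test called 11 of 40 genes, or 27.5%, against 30.4% of all rows, so the share of genes called was close to the background. It called 8 genes higher in the pools, or 20%, against 12.7% of all rows, and 3 lower, or 7.5%, against 17.7%. DESeq2 also called 8 higher and 3 lower. The count of 8 fell to 3 of 40 without left replicate 7, where a larger share of all rows, 2615 of 23630, was called higher. The count of 3 fell to 1 without right replicate 7, where 3820 of 23615 rows were called lower. It also fell to 1 without right replicate 8, where 3450 of 23604 rows were. The median log2 fold over the 40 genes, pools over single-stomach, was 0.01, with -0.10 over all rows, and 21 of 40 folds were above 0, against 43.9% of all rows. The pools lay above all single-stomach libraries for 3 genes, or 7.5%, against 6.85% of all rows, and below them for 1, or 2.5%, against 11%. The pools also differed in markers of other tissues. The liver markers summed to 23219 to 37863 CPM in the pools and 1536 to 10809 CPM in the single-stomach libraries, with 7 of 8 called higher. The erythroid markers summed to 19344 to 73102 CPM in the pools and 1015 to 26998 CPM in the single-stomach libraries, with 1 of 6 called. Of other lists, 4 of 6 epidermal and 3 of 11 foregut and stomach markers were called lower in the pools, and 3 of 4 skeletal muscle markers tested were called higher. Depth differed too, and the part of these differences in the results was not tested.

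In G1, CCND2, CDK4 and CDK2 rose in the pools and CCNE1 fell. The 3 higher genes were 37.5% of 8, against 12.7% of all rows, and the 1 lower gene was 12.5%, against 17.7%. CCND2, cyclin D2, was at 30.2 and 21.4 CPM in the left pools and 30.1 and 25.5 CPM in the right pools, and ran from 10.1 to 19.5 CPM in the single-stomach libraries (median 13.4). The 4 pools lay above the 10 single-stomach libraries, and the log2 fold was 0.99 ± 0.17 (SE; edgeR adjusted p = 0.000551). CDK4, the partner of D cyclins, was at 104 and 89.1 CPM in the left pools and 83.1 and 92.6 CPM in the right pools, and ran from 63.8 to 82.9 CPM in the single-stomach libraries, which the pools did not overlap (log2 fold 0.34 ± 0.10, edgeR adjusted p = 0.0151). CDK2 was at 62.0, 57.9, 53.7 and 48.0 CPM in the pools and ran from 37.2 to 54.6 CPM in the single-stomach libraries (log2 fold 0.35 ± 0.11, edgeR adjusted p = 0.0321).
CCNE1, at 124 and 114 CPM in the left and 90.3 and 84.6 CPM in the right pools and 117 to 151 CPM in the single-stomach libraries, fell by 0.34 ± 0.10 on the log2 scale (edgeR adjusted p = 0.0235). For CCNE1 3 of 4 pools lay below all single-stomach libraries, with left replicate 7 within their range. The side effect of this gene differed between the sources at an unadjusted p of 0.0445 for the interaction term, with edgeR adjusted p = 0.638 over all rows, where 7.67% of rows had an unadjusted p under 0.05. It was the only one of the 40 genes with such a p, and edgeR and DESeq2 called 0 of 40 for this term. CCND1, CCNE2, CDK6 and E2F1 were not called, with log2 folds from -0.12 for CCND1 to 0.0022 for CDK6.

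In replication, RRM2 rose in the pools while CDT1 and its inhibitor GMNN fell. The 1 higher gene was 7.14% of 14, against 12.7% of all rows, and the 2 lower genes were 14.3%, against 17.7%. RRM2, the small subunit of the reductase that makes deoxynucleotides, was at 273 and 283 CPM in the left pools and 208 and 248 CPM in the right pools, and ran from 116 to 181 CPM in the single-stomach libraries (median 139). The pools lay above all single-stomach libraries, and the log2 fold was 0.83 ± 0.13 (SE; edgeR adjusted p = 0.000312). CDT1 was at 189 and 176 CPM in the left pools and 156 and 151 CPM in the right pools, and ran from 202 to 300.2 CPM in the single-stomach libraries. All 4 pools lay below the single-stomach libraries for CDT1, which fell by 0.51 ± 0.12 on the log2 scale (edgeR adjusted p = 0.00467).
GMNN was at 56.3 and 57.4 CPM in the left pools and 36.4 and 41.6 CPM in the right pools, and ran from 46.1 to 89.0 CPM in the single-stomach libraries. Its ranges overlapped, and it fell by 0.55 ± 0.18 (edgeR adjusted p = 0.0283). The MCM subunits were not called, with log2 folds from -0.18 for MCM2 to 0.12 for MCM7, nor were RRM1 (0.53 ± 0.25), PCNA (0.24 ± 0.15), ORC1 (-0.31 ± 0.15), CDC6 and TYMS. The other row of MCM7 had a log2 fold of -0.62, and with rows summed by entry name the fold of MCM7 was below 0.

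In mitosis, AURKA, CDK1, CCNA2 and CCNB3 rose in the pools, 4 of 18 genes or 22.2% against 12.7% of all rows, and 0 of 18 were called lower, against 17.7% of all rows. AURKA was at 77.6 and 76.3 CPM in the left pools and 62.8 and 49.996 CPM in the right pools, and ran from 38.0 to 54.6 CPM in the single-stomach libraries (log2 fold 0.52 ± 0.12, edgeR adjusted p = 0.00581). CDK1, the mitotic kinase, was at 129 and 91.2 CPM in the left pools and 122 and 107 CPM in the right pools, and ran from 77.2 to 96.3 CPM in the single-stomach libraries (0.40 ± 0.10, edgeR adjusted p = 0.00952). For both genes 3 of 4 pools lay above all single-stomach libraries. CCNA2, cyclin A2, was at 209 and 244 CPM in the left pools and 167 and 194 CPM in the right pools, against 145 to 182 CPM in the single-stomach libraries (0.30 ± 0.10, edgeR adjusted p = 0.0390). CCNB3, cyclin B3, was at 129 and 104 CPM in the left pools and 108 and 107 CPM in the right pools, against 78.7 to 108 CPM in the single-stomach libraries (0.29 ± 0.10, edgeR adjusted p = 0.0422). For both the groups overlapped. Cyclins B1 and B2, with log2 folds of 0.04 and -0.11, were not called, nor were PLK1, TOP2A, MKI67 and the BUB genes.

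The calls differed in how they held with 1 library left out. CCND2, RRM2, CDT1 and AURKA kept their calls when any 1 of the 14 libraries was dropped. Each of these fits kept the other side's library of the same replicate number, which for the pools does not show that they share stomachs. CDK4 and CDK1 were lost without left replicate 7, GMNN without right replicate 7 or right replicate 8, and CCNE1 without right replicate 6, 7 or 8. CDK2 was called in 10 of the 14 fits, CCNA2 in 6 and CCNB3 in 4. The log2 folds kept their sign in these fits, at 0.32 to 0.39 for CDK2, 0.27 to 0.38 for CDK4, 0.32 to 0.48 for CDK1, -0.64 to -0.46 for GMNN, -0.42 to -0.27 for CCNE1, 0.19 to 0.38 for CCNA2 and 0.21 to 0.34 for CCNB3. Pools were also fitted against each set of single-stomach libraries. The sets were found in these data, so the calls and p-values of these fits are descriptive only. Against replicates 1 to 3 alone and against replicates 5 and 6 alone, CCND2, RRM2 and CDT1 were called in both fits. AURKA was called against replicates 1 to 3 (log2 fold 0.63, edgeR adjusted p = 0.00169) and not against replicates 5 and 6 (0.34, edgeR adjusted p = 0.135). The same held for CDK4, CDK1, CCNE1, CCNA2 and CCNB3. CDK2 and GMNN were called against replicates 5 and 6 and not against replicates 1 to 3. Against replicates 5 and 6 alone 8 of 40 genes were called higher and 2 lower, with 3104 and 4483 of 22967 rows. Against replicates 1 to 3 alone 7 were called higher and 2 lower, with 3651 and 4179 of 22741 rows. RRM1, MCM7, PCNA, CCNB1 and AURKB were called higher against replicates 5 and 6 alone and not against replicates 1 to 3 alone or all single-stomach libraries. For CCNB1 the log2 fold was 1.19 against replicates 5 and 6 (edgeR adjusted p = 0.00369) and -0.40 against replicates 1 to 3 (edgeR adjusted p = 0.0620), of opposite sign. For RRM1 it was 1.17 (edgeR adjusted p = 0.000111) and 0.23 (edgeR adjusted p = 0.202).

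In the second list of 82 genes with a row, 18 were called higher in the pools, or 22%, against 12.7% of all rows, and 6 lower, or 7.32%, against 17.7%. Called in either direction were 29.3%, close to the 30.4% of all rows. The 6 lower were the entries E2F7, RBL1, RBL2, MPIP1, WEE1 and GEMC1. GEMC1 was near the floor, at 0 CPM in the pools and 0.74 ± 0.78 CPM in the single-stomach libraries (SD, n = 10). The list's median log2 fold was 0.17, with -0.10 over all rows. The 4 with the smallest p all rose. They were RPA2 (entry RFA2), a subunit of the protein that coats single-stranded DNA, at 128 ± 26.6 CPM in the pools and 68.1 ± 9.34 CPM in the single-stomach libraries (SD, n = 4 and 10), and GINS1 (entry PSF1), a partner of the MCM helicase, at 21.96 ± 2.16 CPM in the pools and 9.72 ± 2.89 CPM in the single-stomach libraries. PRIM2 (entry PRI2), a primase subunit, was at 30.8 ± 1.95 CPM in the pools and 18.9 ± 2.63 CPM in the single-stomach libraries, and the kinetochore protein NDC80 at 157 ± 27.0 CPM in the pools and 109.6 ± 7.87 CPM in the single-stomach libraries. Their log2 folds were 0.91, 1.17, 0.70 and 0.51, with edgeR adjusted p = 0.000296, 0.000935, 0.000935 and 0.00202.

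**Figure D3:**
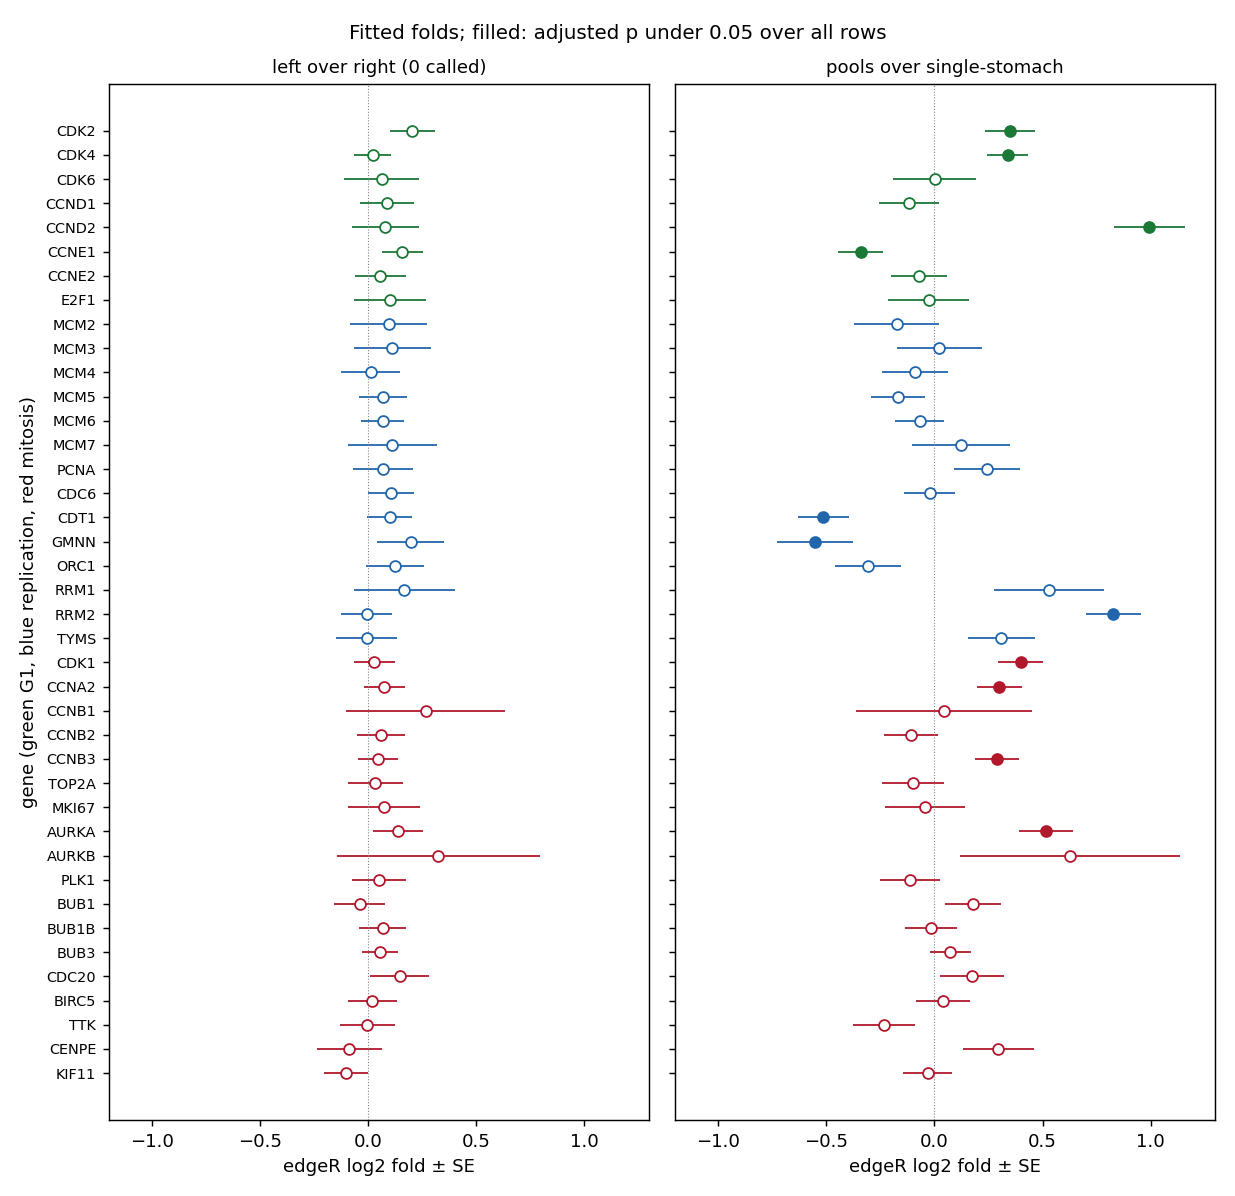
EdgeR log2 fold with its standard error for each of the 40 genes, left over right (left panel) and pools over single-stomach libraries (right panel), filled where the adjusted p over all rows was under the threshold of 0.05. None is filled on the left; 8 above 0 and 3 below 0 are filled on the right.

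Among the single-stomach libraries, replicates 5 and 6 differed from replicates 1 to 3 in several of the genes. This division came from the data, so its values carry no test. The 4 libraries of replicates 5 and 6 lay below the 6 of replicates 1 to 3 for 9 of 40 genes, or 22.5%, against 18.3% of all rows, and above them for 4, or 10%, against 18.8%. The 9 lower genes were CDK6, CCND2, E2F1, MCM2, MCM7, CDT1, RRM1, CCNB1 and AURKB. The 4 higher genes were RRM2, in the row used and not in its other row, BUB1, TTK and KIF11. Replication genes were mostly lower in replicates 5 and 6 (11 of 14), with a median log2 difference of -0.26. So were G1 genes (6 of 8), with a median of -0.17. Mitosis genes were split (10 higher, 8 lower), with a median of 0.01. In the second list 45 of 82 genes were lower, with a median of -0.06. Over all rows the median was -0.01, and 49.4% were higher.

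Of the 40 genes 2, both of mitosis, differed by over 1 on the log2 scale, as 12.5% of all rows did. CCNB1, cyclin B1, was at 18.2 and 11.9 CPM in the left and 12.1 and 14.7 CPM in the right libraries of replicates 5 and 6, and ran from 41.1 to 49.2 CPM in replicates 1 to 3. The sets did not overlap, and the mean was 3.14-fold higher in replicates 1 to 3. AURKB, the Aurora kinase of the chromosomal passenger complex, had its 4 libraries of replicates 5 and 6 at 1.17 to 2.09 CPM and those of replicates 1 to 3 at 5.09 to 7.41 CPM, again without overlap. Rows of the entry AURKC, given below, held more CPM and differed less between these sets. The pools lay at 4.11 to 11.3 CPM for AURKB and at 26.1 to 51.1 CPM for CCNB1, above replicates 5 and 6 of both sides.
The other B cyclins and their kinase CDK1 differed less between the sets. CCNB2 averaged 80.5 ± 11.001 CPM in replicates 5 and 6 and 71.1 ± 5.93 CPM in replicates 1 to 3 (SD, n = 4 and 6). CCNB3 averaged 90.3 ± 7.83 CPM in replicates 5 and 6 and 93.0 ± 9.15 CPM in replicates 1 to 3. CDK1 averaged 85.1 ± 3.18 CPM in replicates 5 and 6 and 85.1 ± 7.66 CPM in replicates 1 to 3.

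Of the subunits of ribonucleotide reductase, RRM1 was lower in replicates 5 and 6, and the rows of RRM2 went opposite ways. RRM1, the large subunit, was at 125 and 136 CPM in the left and 113 and 128 CPM in the right libraries of replicates 5 and 6, and ran from 200 to 321 CPM in replicates 1 to 3. In the row used, RRM2 averaged 162 ± 16.6 CPM in replicates 5 and 6 and 130 ± 9.68 CPM in replicates 1 to 3. Its other row averaged 94.5 ± 8.96 CPM in replicates 5 and 6 and 113 ± 7.95 CPM in replicates 1 to 3. The row used thus does not give the direction of the whole gene. In the pools both were high, RRM1 at 269 to 318 CPM and RRM2 at 208 to 283 CPM. MCM7 averaged 182 ± 37.1 CPM in replicates 5 and 6 and 317 ± 45.1 CPM in replicates 1 to 3, while the subunit MCM6 averaged 348 ± 8.90 CPM in replicates 5 and 6 and 378 ± 51.5 CPM in replicates 1 to 3. The 6 subunits thus did not differ by the same factor, with log2 differences from -0.81 for MCM7 to -0.08 for MCM5.
Of the pair that controls helicase loading, CDT1 was lower in replicates 5 and 6 (211 ± 8.76 CPM) than in replicates 1 to 3 (258 ± 25.3 CPM), and GMNN was higher (82.6 ± 7.80 against 60.8 ± 9.42 CPM). Epidermal markers, 6 in number with P63 at 0 in at least 1 library, summed to 8976 to 11058 CPM in replicates 5 and 6 and 2414 to 5867 CPM in replicates 1 to 3. The sums of the erythroid (18742 to 26998 against 1015 to 16057 CPM), smooth muscle (411 to 463 against 147 to 273 CPM) and foregut and stomach markers (1666 to 1839 against 1328 to 1518 CPM) were also higher in replicates 5 and 6 without overlap, and that of the endothelial markers was lower (111 to 126 against 153 to 233 CPM). Their part in these differences, and that of depth, was not tested.

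**Figure D4:**
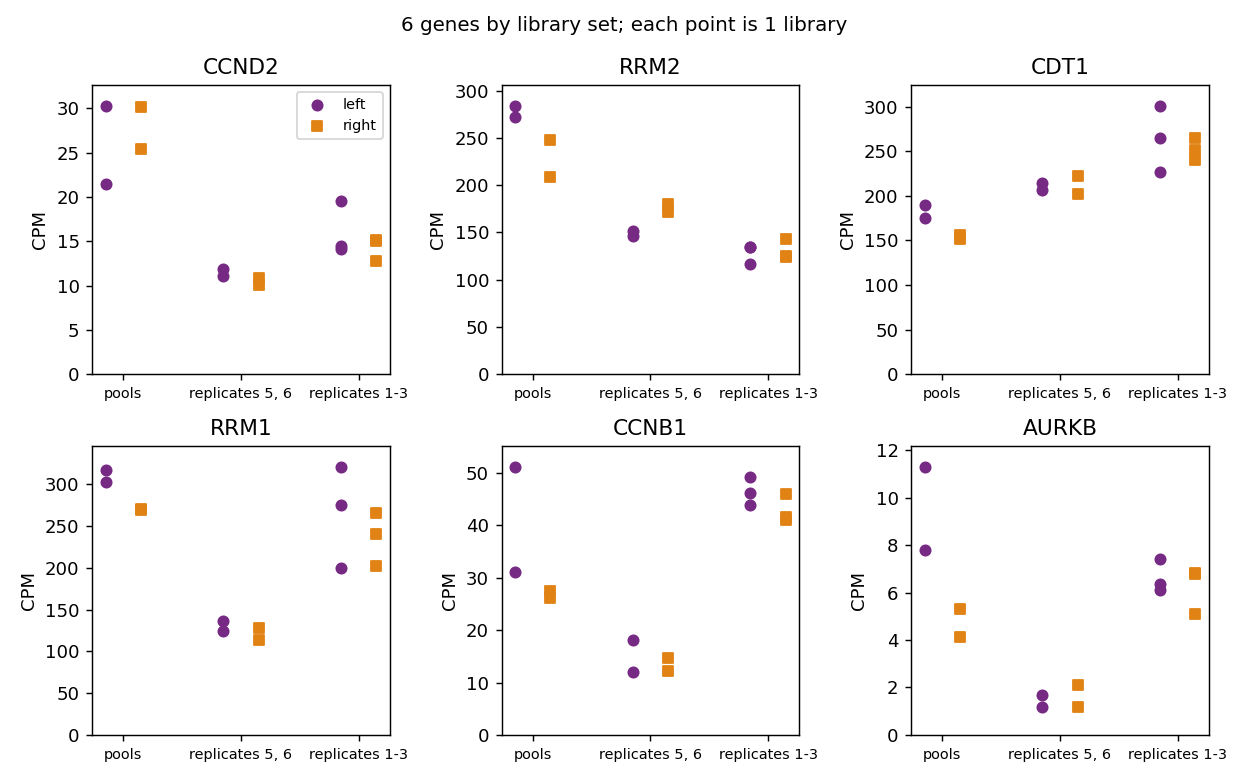
CPM of 6 genes in each library, with pools, replicates 5 and 6 and replicates 1 to 3 side by side, left libraries as circles and right libraries as squares. CCND2 and RRM2 are highest and CDT1 lowest in the pools, whereas RRM1, CCNB1 and AURKB are lowest in replicates 5 and 6.

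How the table names its rows bears on some of these values. Of the 40 genes 35 had 1 reviewed row, and MCM7, RRM2, TYMS, CCNB1 and MKI67 had more, isoforms that may share or split reads. For RRM2 the row used held 53.0 to 55.97% of the entry's counts in the pools, 62.4 to 63.8% in replicates 5 and 6 and 52.8 to 54.2% in replicates 1 to 3. Its other row was called higher in the pools as well (log2 fold 1.01, edgeR adjusted p = 3.93e-05), but averaged 94.5 ± 8.96 CPM in replicates 5 and 6 and 113 ± 7.95 CPM in replicates 1 to 3, the reverse of the row used. For MCM7 the other row had a log2 fold of -0.62 in the pools (edgeR adjusted p = 0.0913), of opposite sign to the row used. For MKI67 the other row had -0.34 (edgeR adjusted p = 0.261). The other rows of TYMS averaged 0.70 and 1.58 CPM in replicates 5 and 6 and 1.32 and 3.73 CPM in replicates 1 to 3, the reverse of the row used. For CCNB1 the row used held at least 96.3% of the counts in each library. AURKB had 1 row, with means of 1.53 ± 0.439 CPM in replicates 5 and 6 and 6.42 ± 0.794 CPM in replicates 1 to 3. Rows of the entry AURKC, which may share its reads, held more and were lower in replicates 5 and 6 too. Their means were 12.3 ± 1.68 and 3.11 ± 0.575 CPM there and 21.3 ± 2.78 and 9.07 ± 1.38 CPM in replicates 1 to 3. The log2 ratios of these means were -0.79 and -1.54 for AURKC and -2.07 for AURKB. Whether AURKC is a separate gene in this frog is not given. AURKC was chosen after its values were seen.

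Correlations between genes were taken across the 14 libraries once the mean of each library set was removed. Over the 780 pairs of the 40 genes the median was 0.32, and 595 pairs, or 76.3%, were above 0. Over all pairs of rows tested the median was 0, and 50% were above 0. The median was 0.77 among MCM2 to MCM7, where all 15 pairs were above 0, 0.50 among replication genes, 0.41 among G1 genes and 0.27 among mitosis genes. KIF11, with a median correlation of -0.23 to the others, and BUB1B, with -0.02, were the 2 genes whose median was below 0. These correlations describe 14 libraries that share scaling and, within a title stem, perhaps a stomach.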

How the data were processed

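The input was the raw counts that the authors deposited, whole numbers for 26940 human UniProt rows. Bowtie2 2.1.0, SAMtools 0.1.19, Bowtie, DESeq and Trimmomatic are named, without a role, per the submitters' processing notes, and read assignment is not given in the sources used here. Libraries were strand-specific per the labels' protocols. The authors' normalized table was not used here. For each gene the reviewed row of highest mean count was taken. Whether left and right libraries of a title stem share a stomach is not stated, and the p-values rest on the spread of these libraries. The test of pools against single-stomach libraries counts left and right as separate libraries. Where they share stomachs, its p-values and standard errors are too small.

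Left was compared with right, and pools with single-stomach libraries, in 1 fit of edgeR 4.0.16 (R 4.3.3; quasi-likelihood test, TMM factors, filterByExpr, side and source as terms), with Benjamini-Hochberg adjustment over all 23271 rows tested and a threshold of 0.05. All 40 genes passed the filter. Log2 folds are left over right and pools over single-stomach, with standard errors derived from the fold and its F statistic. Fits were also run on simulated counts of independent libraries, with changes larger than the side folds of these genes. Such counts do not test smaller folds or the effect of library sets. All 42 pairs of same-side libraries differed beyond counting noise, with a chi-square over its degrees of freedom of 15.8 or more.

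The genes and lists were chosen with earlier results of these data known. Values in full go to the 3 genes per phase with the smallest p in each comparison and to up to 5 called genes per phase; the genes given in full for the library sets, in single pairs and AURKC were chosen after their values were seen. After removal of side and source means, left and right of a stem had correlations of 0.62 (replicate 1), 0.64 (2), 0.64 (3), 0.77 (5) and 0.85 (6). The difference between the library sets was left in, so these values cannot show that the stems pair the samples. With side and set means removed they were 0.47, 0.25, 0.09, 0.46 and 0.46. Those of replicates 5 and 6 are equal by construction, as each side has 2 libraries there. The stems were used as pairs, following the titles. Replicate numbers 1 and 2 follow matching titles. Those of the pools follow the order of the samples, and the pools have no pairs. Alternatives were RLE size factors, no filter, DESeq2 1.42.0, no source term, the replicate block, the library sets as a term, subsets of libraries, each library left out and rows summed by entry name.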

Additional observations from a re-analysis of the deposited data

Results flagged for a closer look

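Of 160 groups of 4 to 10 libraries examined, 4 held a value farther from the rest than a test for outliers allows at the 5% level. Such a level flags about 1 in 20 independent groups. These groups share libraries and some mix library sets, so that rate is no measure for them. CDK1 was at 129 CPM in left replicate 7, a pool, with the next of the 7 left libraries at 96.3 CPM. The left libraries mix pools with single-stomach libraries, and CDK1 was at 122 and 107 CPM in the right pools. CCNB3 was at 129 CPM in left replicate 7, with the next of the 4 pools at 108 CPM. BUB1B was at 77.8 CPM in left replicate 8, with the next pool at 63.3 CPM. CCNE1 was at 151 CPM in left replicate 3, with the next of the 10 single-stomach libraries at 135 CPM. Left replicate 7 had the lowest total, 12174670 counts. The cause of these values was not tested.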

How the results depend on the processing

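No call on a replication or mitosis gene for left against right changed under any alternative: 0 of 40 were called throughout. With the replicate block, which treats libraries of 1 title stem as a pair, 33 of 40 folds were above 0, the median log2 fold was 0.07 and 0 of 40 were called, and the block changed no call. The median ran from 0.016 to 0.10 with 1 library left out. Signs of some folds turned, for 8 of the 40 genes in the single-stomach libraries alone, 10 there with the replicate block, 11 in the pools alone, up to 9 with 1 library left out and up to 4 under the other alternatives that kept all libraries or left out replicates 5 and 6. Values follow for the genes given in full. In the single-stomach libraries alone they were CDK4 (-0.027), CDC6 (-0.010) and CCNA2 (-0.027), and with the replicate block CDK4 (-0.027), CDC6 (-0.018), CCNA2 (-0.031) and CDC20 (-0.0036). In the pools alone they were CCND2 (-0.13), CDK1 (-0.081) and RRM2 (0.26). RRM2 also turned with no source term (0.046), with the 3 library sets as a term (0.0013), with replicates 1 to 3 and pools (0.076, an alternative chosen after seeing the data) and with rows summed by entry name (0.0047). With 1 library left out the fold ran from -0.041 to 0.14 for CCND2, -0.018 to 0.056 for CDK4, -0.066 to 0.057 for RRM2, -0.021 to 0.080 for CDK1 and -0.016 to 0.063 for CCNB3.

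For pools against single-stomach libraries, the genes called higher numbered 3 to 8 and those called lower 1 to 4 with 1 library left out. Of all rows, 2336 to 3073 were called higher in these fits and 3450 to 4075 lower. Of the 40 signs, 3 turned with RLE size factors, 3 with DESeq2, 9 against replicates 1 to 3 alone and 4 against replicates 5 and 6 alone. With rows summed by entry name 2 turned, those of CDK6 and MCM7, and with no filter 1. Among the genes given in full, CDC6 turned with RLE size factors (0.0060) and DESeq2 (0.0054), and KIF11 turned against replicates 1 to 3 alone (0.13). With 1 library left out CDC6 ran from -0.14 to 0.063, CDC20 from -0.021 to 0.26 and KIF11 from -0.076 to 0.022. For the difference of the side effect between sources, edgeR called 0 rows, with 1785 at an unadjusted p under 0.05, and DESeq2, tried after seeing the data, called 144, none of them among the 40 genes. The cause was not tested. The pools, 4 in number and least deeply sequenced, limit both comparisons they enter.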
